A study of Mus musculus with 37 samples.

Results

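The genes described are the 53 cytosolic ribosomal protein genes of the mouse mammary gland array data, out of 19937 genes that a probe set names alone. A gene was a member if the single symbol annotated to its probe set followed the standard naming of the large subunit (Rpl), the small subunit (Rps), the acidic stalk (Rplp0, Rplp1 and Rplp2) or the laminin receptor protein Rpsa. This gave 33 large subunit genes, the stalk among them, and 20 small subunit genes, and the probe set with the highest mean was taken for each. All 53 passed the filter on low values that left 16865 genes to be tested. A further 16 symbols of this family appeared only on probe sets that also carry other symbols and were not counted, Rpl13a among them. All 53 symbols matched a RefSeq gene of GRCm38.p6, on 16 chromosomes. The chosen probe sets of Rpl12 and Rplp2 were the only 2 with no RefSeq mRNA among their annotated accessions. Their log2 means over the arrays, 7.60 and 6.91, lay below the median of 7.81 over all genes tested.

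Total RNA of whole mammary glands from FVB mice was hybridised to 37 Affymetrix whole-transcript arrays. The knockout (KO) glands came from PTP1B-/- females of a line crossed to FVB for at least 7 generations, and the wild-type (WT) glands from PTP1B +/+ females. PTP1B, the product of Ptpn1, removes phosphate from tyrosines of the insulin receptor and of the kinase JAK2, and the series title names the effect of its deficiency on mammary gland development and differentiation. In both genotypes P0 stands for nulliparous females in oestrus and P3, P7, P10 and P15 for days 3, 7, 10 and 15 of pregnancy, in females mated at 12 weeks of age. From P0 to P15 the KO groups held 4, 3, 5, 3 and 4 arrays and the WT groups 4, 3, 4, 3 and 4. No treatment was given. The labels do not say that the deletion was confined to any cell type or that replicates were separate animals, so the p-values measure the spread between these arrays.

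The cytosolic ribosome is built of a small subunit, which reads the mRNA, and a large subunit, which joins amino acids, each made of ribosomal RNA and of proteins needed in near equal numbers. Most of these protein genes start transcription at a C followed by a run of pyrimidines, the 5′ terminal oligopyrimidine (5′ TOP) motif, through which mTORC1 sets the translation of their mRNAs together. In pregnancy the mammary epithelium multiplies and then turns to the synthesis and export of milk proteins. An array of this kind measures mRNA and not ribosomes, and in whole glands fewer cells of a type and less RNA per cell cannot be told apart.

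RefSeq promoter windows of GRCm38.p6 were matched to 42 of the 53 genes. Of these, 9 (21.4%) had a C followed by 4 pyrimidines at an annotated start, against 3.01% of all 27025 genes in the table. A pyrimidine run of 8 or more bases over the start was present in 12 of 42 (28.6%), against 4.59% of all genes. Searched on both strands from 250 bases before to 50 after the start, the ETS core CCGGAAG was found in 16 (38.1%, against 9.93% of all genes) and CTCGCGAG in 7 (16.7%, against 1.04%). The YY1 core AAGATGGC was found in 2 (4.76%, against 3.19%) and TATAAA in 5 (11.9%, against 15.7%). Rps15a, Rps18 and Rpl38 are printed because they rose in KO glands or in pregnancy, Rps6 because it passed no test, and Rps13 and Rpl12 because they rose without such a run over their annotated start. Each window holds 60 bases before the start and 12 from it, 5′ to 3′ on the strand of the gene. Capitals mark a pyrimidine run of 8 or more over the start, CCGGAAG or CTCGCGAG.
Rps15a (chr7:118116136-118116207, minus strand): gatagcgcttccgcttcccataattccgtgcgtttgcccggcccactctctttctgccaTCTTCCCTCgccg
Rps18 (chr17:33955654-33955725, minus strand): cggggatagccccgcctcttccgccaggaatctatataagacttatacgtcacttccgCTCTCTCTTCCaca
Rpl38 (chr11:114668520-114668591, plus strand): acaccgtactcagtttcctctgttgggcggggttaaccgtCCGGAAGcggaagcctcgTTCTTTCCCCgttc
Rps6 (chr4:86857356-86857427, minus strand): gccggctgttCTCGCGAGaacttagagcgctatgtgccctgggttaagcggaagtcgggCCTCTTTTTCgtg
Rps13 (chr7:116334179-116334250, minus strand): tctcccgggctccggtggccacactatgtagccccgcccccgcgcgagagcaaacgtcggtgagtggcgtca
Rpl12 (chr2:32961652-32961723, plus strand): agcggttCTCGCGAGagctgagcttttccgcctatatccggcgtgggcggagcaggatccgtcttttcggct
The runs over the start of Rps15a, Rps18, Rpl38 and Rps6 are 9, 11, 10 and 10 bases long. These matches describe the letters in the windows, and a start can be annotated some bases away from the one used in the gland.

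Ptpn1 lay between 5.36 and 6.49 on the log2 scale in 18 of the 19 KO arrays and between 7.90 and 9.06 in the 18 WT arrays. The array labelled KO P15 replicate 3 had 8.68, which is within the WT range. Lymphocyte markers were high in KO P10 replicates 2 and 3 and WT P7 replicate 1, and skeletal muscle markers in KO P3 replicate 1, KO P7 replicate 3 and WT P0 replicate 4. These 7 arrays are called the arrays in doubt, and results that rest on them are also given without them. Leaving them out leaves a single KO P10 array, so no calls are then given for comparisons that use KO P10.

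Averaged over the 53 genes, the ribosomal protein level was lowest in WT P0 glands and lay closer together in the other 9 groups. The family level of an array is the mean of its 53 log2 values after subtracting, gene by gene, the average of the 37 arrays. In KO glands it was -0.05 ± 0.09 at P0 (SD, n = 4), 0.03 ± 0.15 at P3 (n = 3), 0.05 ± 0.09 at P7 (n = 5), 0.13 ± 0.06 at P10 (n = 3) and 0.13 ± 0.03 at P15 (n = 4). In WT glands it was -0.27 ± 0.18 at P0 (n = 4), 0.05 ± 0.10 at P3 (n = 3), 0.07 ± 0.11 at P7 (n = 4), -0.08 ± 0.11 at P10 (n = 3) and -0.04 ± 0.05 at P15 (n = 4). The 4 KO P15 arrays, at 0.11 to 0.16, all lay above the 4 WT P15 arrays, at -0.10 to 0.01. At P0 the groups overlapped, with -0.18, -0.01, -0.01 and -0.01 in the KO arrays against -0.45, -0.02, -0.29 and -0.33 in the WT arrays.

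**Figure D1:**
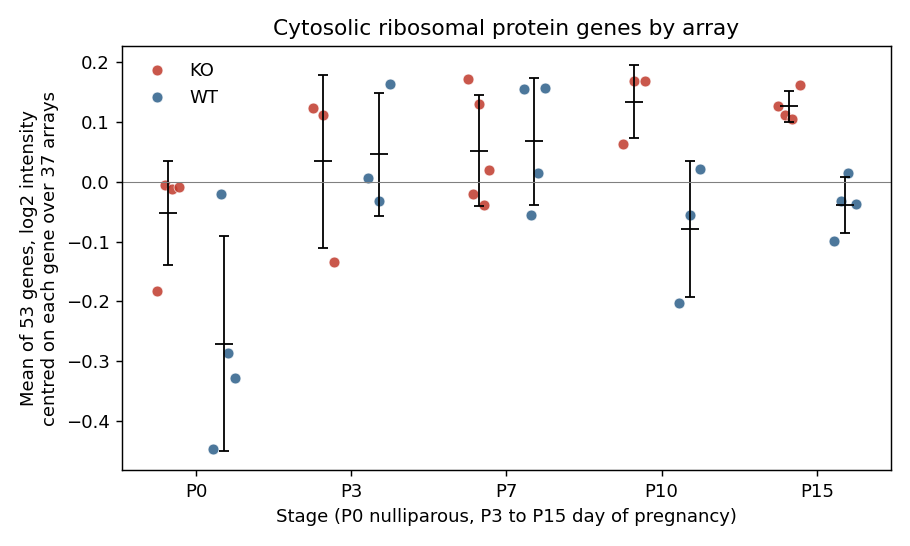
Family level of each of the 37 arrays (y axis, mean over 53 genes of log2 intensity centred on each gene's mean) by stage (x axis), KO left of WT at each stage. Points are arrays, long bars are group means and whiskers are SD; the 4 KO P15 arrays lie above the 4 WT P15 arrays, and 3 of the 4 WT P0 arrays lie below every other array.

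At P0, 52 of the 53 genes had a positive KO minus WT difference, with a median of 0.22 log2 (1.17-fold), while the median over all genes tested was -0.0089. The limma adjusted p, with Benjamini-Hochberg adjustment over all 16865 genes, was below 0.05 for 5 members, all higher in KO glands (9.43% of members, against 1.27% of all genes tested that were higher and 0.421% that were lower in KO). They were the small subunit genes Rps13, Rps18 and Rps25 and the large subunit genes Rpl7 and Rpl6. Rps13, which encodes a protein of the small subunit body, had 10.02, 10.10, 10.30 and 10.27 in the KO P0 arrays, against 9.64, 9.90, 9.71 and 9.74 in the WT P0 arrays. Every KO value lay above every WT value, and the difference was 0.42 ± 0.10 log2 (SE, limma adjusted p = 0.0248). Rps18, a protein of the small subunit head, had 12.72, 13.02, 12.85 and 12.90 in KO, against 12.21, 12.75, 12.53 and 12.49 in WT. One WT array lay just above the lowest KO array, and the difference was 0.38 ± 0.10 (limma adjusted p = 0.0382). Rpl7 and Rps25 both rose by 0.35 ± 0.09 (limma adjusted p = 0.0442 and 0.0481). In all, 6 members had groups that did not overlap with KO higher, against 3.23% of all genes, and none with KO lower, against 4.81%.

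The P0 counts moved with single arrays and with the epithelial covariate, and marker lists differed beside them. WT P0 replicate 2 stood apart from the other WT P0 arrays in the family level and in the mean of 14 epithelial markers (Epcam, Cdh1, keratins, claudins and others), where the KO P0 arrays had -0.40, 0.30, 0.09 and 0.28 and the WT P0 arrays -1.05, 0.38, -0.68 and -0.53. None of the 14 epithelial markers was itself called at P0. All 17 cell cycle genes had positive differences, with a median of 0.83, and their mean was -0.17 ± 0.77 in KO P0 and -1.07 ± 0.67 in WT P0 arrays (SD, n = 4 each). All 8 macrophage markers were positive too, with a median of 0.63, and none of either list was called. The part of these lists in the result was not tested, apart from the epithelial covariate. With the epithelial score as a covariate no member was called at P0 and the median difference was 0.088. Leaving out WT P0 replicate 2 gave 28 calls and KO P0 replicate 1 gave 9, while leaving out WT P0 replicate 3 or KO P0 replicate 2 gave 1, and leaving out WT P0 replicate 1 or 4 or KO P0 replicate 3 or 4 gave 0. Without the arrays in doubt, which include WT P0 replicate 4, no member was called and the median difference was 0.20. A fit to only the 2 groups compared called none, a further quantile normalisation 1, a replicate block 1, median centring 11 and array weights 20.

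At P3 and P7 no member passed the test between the genotypes. The median KO minus WT difference was -0.021 at both stages, with 21 positive and 32 negative differences, and no member was called by limma in either direction, while 1 had an unadjusted p below 0.05 at each stage. Few genes of any kind were called there: 0.00593% were higher and 0.113% lower in KO at P3, and 0% were higher and 0.00593% lower at P7. At P3 the smallest p belonged to Rpl27, a large subunit gene, with 10.91, 10.91 and 10.78 in KO, against 11.18, 10.96 and 11.13 in WT, and a difference of -0.22 ± 0.09 (limma adjusted p = 0.580). Rpl27 was the single member whose groups did not overlap at P3, where the groups did not overlap with KO lower for 5.08% of all genes and with KO higher for 3.32%. No member had groups without overlap at P7, against 1.04% of all genes with KO lower and 0.747% with KO higher. At P7 it belonged to Rpl9, a large subunit gene, with -0.12 ± 0.06 (limma adjusted p near 1). The sign of the P3 median depended on the setting, since it was 0.033 with the mean of all probe sets of a gene and 0.038 with array weights.

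At P10 the KO glands had higher values for 49 of the 53 genes, with a median difference of 0.19 log2 (1.14-fold) against -0.031 over all genes tested. Limma called 10 members higher and none lower in KO, 18.9% of members against 8.10% of all genes tested, of which 9.13% were called lower. The groups did not overlap for 28 members with KO higher, against 11.0% of all genes, and for 1 with KO lower, against 14.6%. Rpl30, a large subunit gene whose product in yeast also controls the splicing of its own transcript, had 8.70, 9.26 and 9.22 in KO P10, against 8.25, 8.63 and 8.46 in WT P10. Its difference was 0.61 ± 0.18 (limma adjusted p = 0.0186). Rps15a, a small subunit gene, had 8.24, 8.68 and 8.69 in KO, against 7.74, 8.12 and 8.06 in WT. The difference was 0.56 ± 0.15 (limma adjusted p = 0.00755), and in both genes every KO array lay above every WT array, with replicate 1 the lowest KO array. Rps13 had 10.53, 10.67 and 10.77 in KO, against 10.04, 10.20 and 10.17 in WT, a difference of 0.52 ± 0.11 (limma adjusted p = 0.00197). Rpl38, known in the mouse for its part in translating Hox mRNAs, had 12.06, 12.22 and 12.20 in KO, against 11.66, 11.54 and 11.74 in WT. Its difference was 0.51 ± 0.10 (limma adjusted p = 0.00112), and the groups did not overlap for either gene.

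Markers of several cell types moved with the P10 result. All 9 B lymphocyte markers and all 9 T lymphocyte markers that were measured were called higher in KO P10, and the mean of both lists was -0.06, 3.78 and 3.78 in the KO P10 arrays and -0.20, -0.30 and -0.23 in the WT P10 arrays. Called lower in KO P10 were 5 of 8 fibroblast and matrix markers, 4 of 7 endothelial, 3 of 9 white adipocyte and 2 of 14 epithelial markers, against 9.13% of all genes. The part of all these lists in the result was not tested beyond the covariates named here. Leaving out all 7 arrays in doubt, KO P10 replicates 2 and 3 among them, left a single KO P10 array, so only the sizes of the differences are given. The differences of Rpl30, Rps15a, Rps13 and Rpl38 were then 0.25, 0.27, 0.39 and 0.41, and the median over members was 0.14. With the lymphocyte and muscle scores as covariates no member was called, and with the epithelial score as a covariate 29 were. Leaving out KO P10 replicate 2 or 3 alone gave 3 calls each and leaving out WT P10 replicate 1 gave 2, with a median of 0.11. When arrays were centred on their medians, 5 members were called higher and 2 lower, with a median of 0.050 beside an all-gene median of -0.17. A fit to only the 2 groups compared called no member, and array weights gave 27 calls.

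At P15 the KO glands had higher values for 38 of the 53 genes, with a median difference of 0.16 log2 (1.12-fold) and 0.011 over all genes tested. Limma called 10 members higher and none lower in KO, 18.9% of members against 6.78% of all genes tested, of which 4.33% were called lower. The largest difference was that of Rpl12, which sits with the stalk protein Rplp0 at the base of the stalk where translation factors bind. Its only single-symbol probe set had no RefSeq mRNA among its annotated accessions. Rpl12 had 8.29, 7.78, 8.18 and 7.86 in KO P15, against 7.02, 7.32, 7.07 and 6.61 in WT P15. The groups were far apart, with a difference of 1.03 ± 0.26 log2 (2.04-fold, limma adjusted p = 0.00932). Rps12, a protein of the small subunit head, had 11.77, 11.73, 11.81 and 11.91 in KO, against 11.23, 11.19, 11.38 and 11.26 in WT. Every KO array again lay above every WT array, and the difference was 0.54 ± 0.13 (limma adjusted p = 0.00834). Rpsa, a small subunit protein first described as a laminin receptor, had 11.72, 11.88, 11.83 and 11.98 in KO, against 11.42, 11.22, 11.61 and 11.22 in WT. Its difference was 0.49 ± 0.13 (limma adjusted p = 0.0163) and its groups did not overlap. Rpl37a, a large subunit gene, differed by 0.45 ± 0.14 (limma adjusted p = 0.0325), and the other 6 called members, Rps25, Rps9, Rpl13, Rpl7, Rpl22 and Rpl6, by 0.28 to 0.41. Groups did not overlap for 27 members with KO higher, against 10.6% of all genes, and for 1 with KO lower, against 8.49%.

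The array labelled KO P15 replicate 3, whose Ptpn1 level was that of WT glands, had a family level of 0.105, the lowest of the KO P15 arrays, beside 0.111, 0.126 and 0.162 in the other 3, and above all 4 WT P15 arrays. Without it 8 members were called, and 8 without all arrays in doubt, with differences of 0.98 for Rpl12, 0.53 for Rps12, 0.49 for Rpsa and 0.49 for Rpl37a. Epithelial scores were 0.40 to 0.48 in KO and 0.31 to 0.56 in WT P15 arrays. Of the white adipocyte markers 3 of 9 were called higher in KO, with scores of -0.68 to -0.20 in KO and -0.85 to -0.53 in WT, and 5 of 8 fibroblast and matrix markers were lower; their part in the result was not tested. Leaving out WT P15 replicate 4 or KO P15 replicate 4 gave 6 calls each, and leaving out WT P15 replicate 1 gave 5 higher and 1 lower. Centring arrays on their medians gave 24 calls, all higher in KO, beside an all-gene median of 0.099.

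**Figure D2:**
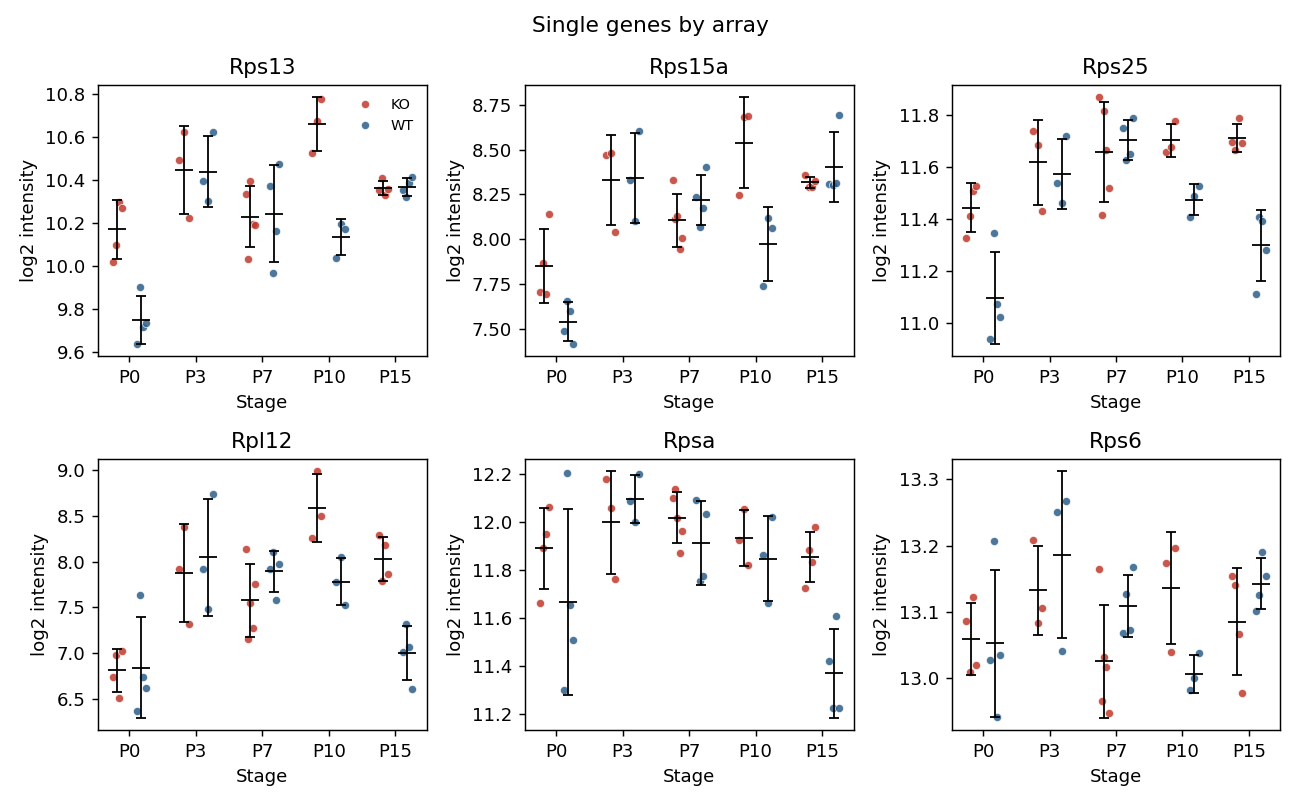
log2 intensity (y axis, its own range in each panel) of Rps13, Rps15a, Rps25, Rpl12, Rpsa and Rps6 in every array by stage (x axis), KO left of WT. Points are arrays, long bars means and whiskers SD. Rps13 separates the genotypes at P0 and P10 but not at P15. Rpl12 separates them at P10 and P15, Rpsa separates them at P15, and Rps6 overlaps at every stage except P10.

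Averaged with equal weight over the 5 stages, 49 of 53 KO minus WT differences were positive, with a median of 0.12 log2 (1.09-fold). Limma called 10 members higher and none lower, 18.9% of members against 1.30% of all genes tested, of which 1.13% were called lower. Rpl13, a large subunit gene, differed most, by 0.29 ± 0.06 (limma adjusted p = 0.00887). Rps12 differed by 0.26 ± 0.06, Rps25, a protein of the small subunit head, by 0.20 ± 0.04, and Rpl26, a large subunit protein that also binds p53 mRNA, by 0.19 ± 0.05 (limma adjusted p = 0.0268, 0.0155 and 0.0353). Of 8 fibroblast and matrix markers 5 were lower in KO (62.5%, against 1.13% of all genes), and their part was not tested. With the lymphocyte and muscle scores as covariates no member was called and the median was 0.099, while array weights gave 32 calls. Without the arrays in doubt, which left a single KO P10 array, the median was 0.091 and Rpl13 had 0.26. Of single arrays, leaving out WT P0 replicate 2 gave 21 calls and KO P10 replicate 1 gave 17, while the count was 6 without WT P0 replicate 1 or WT P7 replicate 3. It was 5 without KO P10 replicate 3, 4 without WT P3 replicate 2 and 3 without KO P10 replicate 2 or WT P10 replicate 1.

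Whether the genotype difference varied between the 5 stages was tested for each gene by limma's F test. It did for 11 of 53 members (20.8%), near the 18.0% of all genes tested. Rps13 had the smallest p (limma adjusted p = 0.0120), with KO minus WT differences of 0.42, 0.0073, -0.014, 0.52 and -0.0052 from P0 to P15. Rpl12 (limma adjusted p = 0.0253) had -0.031, -0.17, -0.32, 0.80 and 1.03. The rest were Rpl38, Rpl10, Rpl29, Rpl9, Rps15a, Rpl6, Rps25, Rpl7 and Rps7. Calls of the F test without the arrays in doubt are not given, because a single KO P10 array was then left. Leaving out 1 array gave 1 call without KO P10 replicate 2 and 20 without WT P0 replicate 2. It gave 4 without KO P10 replicate 3, 5 without WT P15 replicate 4, and 6 without WT P7 replicate 1 or 4 or WT P10 replicate 1. It gave 7 without WT P0 replicate 1 or 4, WT P3 replicate 3, KO P7 replicate 2, WT P15 replicate 1 or KO P15 replicate 2 or 4.

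In WT glands the family was higher at every stage of pregnancy than at P0. The 4 comparisons share the WT P0 arrays. From P3 to P15 the medians were 0.29, 0.35, 0.18 and 0.22 (1.22-, 1.28-, 1.13- and 1.17-fold), against -0.034, -0.052, -0.019 and -0.064 over all genes tested. At P3 limma called 25 members higher (47.2%, against 11.6% of all genes), at P7 34 (64.2%, against 15.5%), at P10 17 (32.1%, against 11.7%) and at P15 27 (50.9%, against 21.6%). No member was called lower at any of the 4 stages, where 6.50%, 13.8%, 9.71% and 27.3% of all genes were. In fits to only the groups compared 2, 22, 0 and 16 members were called. Small subunit genes were called in 13, 16, 8 and 12 of 20 cases from P3 to P15, with medians of 0.36, 0.43, 0.26 and 0.32. Large subunit genes were called in 12, 18, 9 and 15 of 33, with medians of 0.21, 0.28, 0.14 and 0.18.

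Rps15a, Rps13 and Rpl30 rose at all 4 stages in WT glands, and Rpl12 and others at some of them. The P10 call was kept in 2 of 7 fits that left out 1 array for Rpl30 and in 3 of 7 for Rps15a. Rpl30 lost it without WT P0 replicate 1, 3 or 4 or WT P10 replicate 2 or 3, and Rps15a without WT P0 replicate 1 or 4 or WT P10 replicate 2 or 3. Rps15a had 7.49, 7.66, 7.60 and 7.41 at P0, 8.33, 8.10 and 8.60 at P3, 8.23, 8.07, 8.17 and 8.40 at P7, 7.74, 8.12 and 8.06 at P10, and 8.31, 8.30, 8.31 and 8.70 at P15. Every pregnant WT array lay above every WT P0 array, with differences of 0.80 ± 0.14, 0.68 ± 0.13, 0.43 ± 0.14 and 0.86 ± 0.13 (limma adjusted p = 0.000249, 0.000261, 0.0236 and 1.53e-06). Rps13 had 9.64, 9.90, 9.71 and 9.74 at P0, and the pregnant arrays lay between 9.97 and 10.62, with no overlap. Its differences were 0.69, 0.49, 0.39 and 0.62 from P3 to P15 (limma adjusted p between 5.44e-06 and 0.0109). Rpl30 rose by 0.68 ± 0.17, 0.63 ± 0.16, 0.52 ± 0.17 and 0.83 ± 0.16 from P3 to P15 (limma adjusted p = 0.00532, 0.0035, 0.0277 and 6.18e-05). Rpl12 had 6.37, 7.63, 6.74 and 6.63 at P0, 7.91, 7.48 and 8.74 at P3, 7.92, 8.10, 7.58 and 7.97 at P7, 7.77, 8.04 and 7.53 at P10, and 7.02, 7.32, 7.07 and 6.61 at P15. It rose by 1.20 ± 0.28 at P3 and by 1.05 ± 0.26 at P7 (limma adjusted p = 0.00359 and 0.00375), while at P15 its arrays lay inside the P0 range. Rpl29, a large subunit gene that mice can live without, rose by 0.55 ± 0.11 at P15 (limma adjusted p = 9.15e-05). At P7 Rpl37a rose by 0.64 ± 0.14 (limma adjusted p = 0.00126), and at P3 Rps21, a small subunit gene, by 0.71 ± 0.19 (limma adjusted p = 0.00857).

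Cell cycle genes, and after P3 epithelial markers, rose alongside in WT glands. From P3 to P15, 11.6%, 15.5%, 11.7% and 21.6% of all genes were called higher, and 6.50%, 13.8%, 9.71% and 27.3% lower. At P3 the share of epithelial markers called higher was near that of all genes. Of 17 cell cycle genes 17, 15, 15 and 12 were called higher at P3, P7, P10 and P15, and of 14 epithelial markers 2, 9, 4 and 9, with 1 lower at P10 and 2 lower at P15. Of 9 secretory markers 0, 4, 6 and 9 were higher from P3 to P15. Endothelial markers were lower at P3 (6 of 7) and P15 (6 of 7), and at P15 all 9 white adipocyte, 4 of 8 macrophage and 3 of 8 fibroblast and matrix markers were lower. The part of these lists was not tested, apart from the epithelial covariate. With the epithelial score as a covariate 22 members were called higher at P3, 19 at P7, 9 higher and 1 lower at P10, and 4 higher and 2 lower at P15, with medians of 0.20, 0.20, 0.063 and 0.010 from P3 to P15. Centring arrays on their medians left the all-gene median at -0.25 at P15 and gave 6 members higher and 4 lower there, with a median of 0.033 that lies above that shift; at P3 it gave 19 calls, at P7 33 and at P10 19, all higher. Without the arrays in doubt 19, 24, 9 and 22 members were called, all higher. The P3 count was 14 without WT P0 replicate 1, 38 without WT P0 replicate 2 and 9 without WT P3 replicate 3, and the P10 count was 8 without WT P0 replicate 1, 28 without replicate 2, 10 without replicate 4 and 7 without WT P10 replicate 2 or 3.

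In KO glands fewer members were called against P0. The 4 comparisons share the KO P0 arrays. From P3 to P15 the medians were 0.043, 0.11, 0.15 and 0.15, against -0.0067, -0.013, -0.050 and 0.0063 over all genes tested. Centring arrays on their medians shifts all genes of an array alike, and gave medians of -0.046, 0.018, -0.0084 and 0.016 from P3 to P15. The all-gene medians were then -0.096, -0.11, -0.21 and -0.13, so the median of the members was above that of all genes on both scales. Limma called 2 members higher at P3 (3.77%, against 7.80% of all genes) and none lower (against 11.0%), 1 higher and 1 lower at P7 (1.89% each, against 7.84% and 8.34%), 10 higher and 1 lower at P10 (18.9% and 1.89%, against 14.4% and 16.3%) and 14 higher and none lower at P15 (26.4%, against 19.5% higher and 21.8% lower). Only the P10 and P15 shares of higher members exceeded the background. That fewer members were called in KO than in WT was not tested as such, beyond the F test given above.

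Rpl12 rose at all 4 stages in KO glands. It had 6.74, 6.98, 6.51 and 7.02 at P0, 7.92, 8.38 and 7.32 at P3, 8.14, 7.15, 7.55, 7.27 and 7.76 at P7, 8.26, 8.99 and 8.50 at P10, and 8.29, 7.78, 8.18 and 7.86 at P15. Every pregnant KO array lay above every KO P0 array, with rises of 1.06 ± 0.28, 0.76 ± 0.25, 1.77 ± 0.28 and 1.22 ± 0.26 (limma adjusted p = 0.00902, 0.0329, 2.78e-05 and 0.00034). At P15 Rpl30 rose by 0.60 ± 0.16, Rps15a by 0.47 ± 0.13 and Rps12 by 0.38 ± 0.13 (limma adjusted p = 0.00243, 0.00335 and 0.0247). The called members that were lower were Rpl10, whose protein is among the last to join the large subunit, by -0.15 ± 0.05 at P7 (limma adjusted p = 0.0249), and Rpl24, mutated in the Belly spot and tail mouse, by -0.43 ± 0.16 at P10 (limma adjusted p = 0.0437). Rpl24 had 11.11, 11.04 and 11.10 in KO P10 arrays, against 11.40, 11.64, 11.60 and 11.42 in KO P0 arrays, with no overlap. In fits that left out 1 array its call was kept in 2 of 7, and that of Rpl10 in 5 of 9. With the mean of all its probe sets Rpl24 had -0.25. None of the 17 cell cycle genes was called at any KO stage against P0. Of 8 macrophage markers 8, 2, 0 and 8 were called lower from P3 to P15, and of 8 fibroblast and matrix markers 6, 3, 7 and 8. Of 9 white adipocyte markers 4 were lower at P10 and 7 at P15, and all 18 lymphocyte markers were higher at P10. Of 14 epithelial markers 0, 2, 1 and 6 were higher and 4, 4, 5 and 2 lower from P3 to P15. Of 9 secretory markers 0, 2, 5 and 9 were higher, and of 7 endothelial markers 3 were lower at P3, 1 at P10 and 3 at P15. From P3 to P15, 7.80%, 7.84%, 14.4% and 19.5% of all genes were called higher, and 11.0%, 8.34%, 16.3% and 21.8% lower. With the lymphocyte and muscle scores as covariates 1 member was called at P10, with a median of 0.10. With the epithelial score as a covariate 8 members were higher at P3, 4 higher and 1 lower at P7, 31 higher at P10 and 5 higher at P15, with medians of 0.10, 0.093, 0.29 and 0.075. The part of the other lists was not tested.

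The KO medians and counts also depended on single arrays and on scaling. Without KO P0 replicate 1 the medians at P3, P7 and P10 were 0.0094, 0.056 and 0.093. The P3 median was 0.080 without KO P0 replicate 2, and 0.018, 0.016 and 0.13 without KO P3 replicates 1, 2 and 3. Without the arrays in doubt the medians were 0.018, 0.099, 0.091 and 0.16 from P3 to P15, and Rpl12 had 1.04, 0.77, 1.44 and 1.17. At P3, P7 and P15, 1, 2 and 10 members were then called, with a limma adjusted p of 0.0478, 0.0625 and 0.00312 for Rpl12. A single KO P10 array was left, so only the sizes are given for P10. Centring arrays on their medians gave 2 higher and 2 lower at P3, 1 and 3 at P7, 4 and 4 at P10, and 3 and 1 at P15. The P15 count was 4 without KO P0 replicate 1 and 7 without KO P15 replicate 4, the P10 count was 7 without KO P10 replicate 2 or 3, and the P3 count was 1, 0 and 5 without KO P3 replicates 1, 2 and 3. The P7 count was 1 without KO P0 replicate 1 or 2 or KO P7 replicate 1 or 3, 0 without KO P0 replicate 3 or KO P7 replicate 5, and 5 without KO P7 replicate 2.

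From P7 to P15 the median of the family went down in WT glands and up in KO glands, by amounts that centring changed. In KO the median P15 minus P7 difference was 0.060, with 5 members called higher (9.43%, against 14.2% of all genes) and none lower (against 15.8%). In WT it was -0.10, with 3 members called higher (5.66%, against 17.5%) and 12 lower (22.6%, against 22.9%). The WT share of lower members was thus the background share, and the KO share of higher members was under it. In WT, Rpl12 fell by 0.89 ± 0.26, Rpsa by 0.54 ± 0.13, Rpl22, a large subunit gene with roles in lymphocyte development, by 0.52 ± 0.11 and Rpl7 by 0.46 ± 0.09 (limma adjusted p = 0.00704, 0.00157, 0.000337 and 0.000231). Rpsa had 11.42, 11.22, 11.61 and 11.22 in WT P15 arrays, against 12.09, 11.75, 11.77 and 12.04 in WT P7 arrays, with no overlap. These values are of the chosen probe set, and with the mean of its 5 probe sets the difference of Rpsa was -0.19. Its call was kept in 10 of 11 alternative settings. The WT members that rose were Rpl29 (0.50 ± 0.11, limma adjusted p = 0.000439), the stalk gene Rplp2 (0.35 ± 0.10, limma adjusted p = 0.00476) and Rpl28 (0.21 ± 0.07, limma adjusted p = 0.0171). In KO the members that rose were Rpl13 (0.36 ± 0.12), Rpl29 (0.34 ± 0.10), Rpl38 (0.30 ± 0.08), Rpl28 (0.19 ± 0.07) and Rpl10 (0.16 ± 0.05), with limma adjusted p between 0.00749 and 0.0266. With arrays centred on their medians 1 WT member was higher and 28 lower, beside an all-gene median of -0.17, and 3 KO members were higher and 1 lower. With the epithelial score as a covariate the KO median turned to -0.011. Without KO P15 replicate 4 the KO count was 2. Without the arrays in doubt the KO median was 0.084, with 5 members higher and none lower, and the WT median was -0.045, with 3 higher and 8 lower. Leaving out WT P7 replicate 1 alone gave the same WT median and leaving out WT P7 replicate 4 gave -0.066, while the KO median was 0.096 without KO P7 replicate 1 and 0.094 without KO P7 replicate 3. White adipocyte markers were called lower at P15 than at P7 for 7 of 9 in KO and 8 of 9 in WT, and fibroblast and matrix markers for 8 of 8 in KO and 7 of 8 in WT, and their part was not tested.

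**Figure D3:**
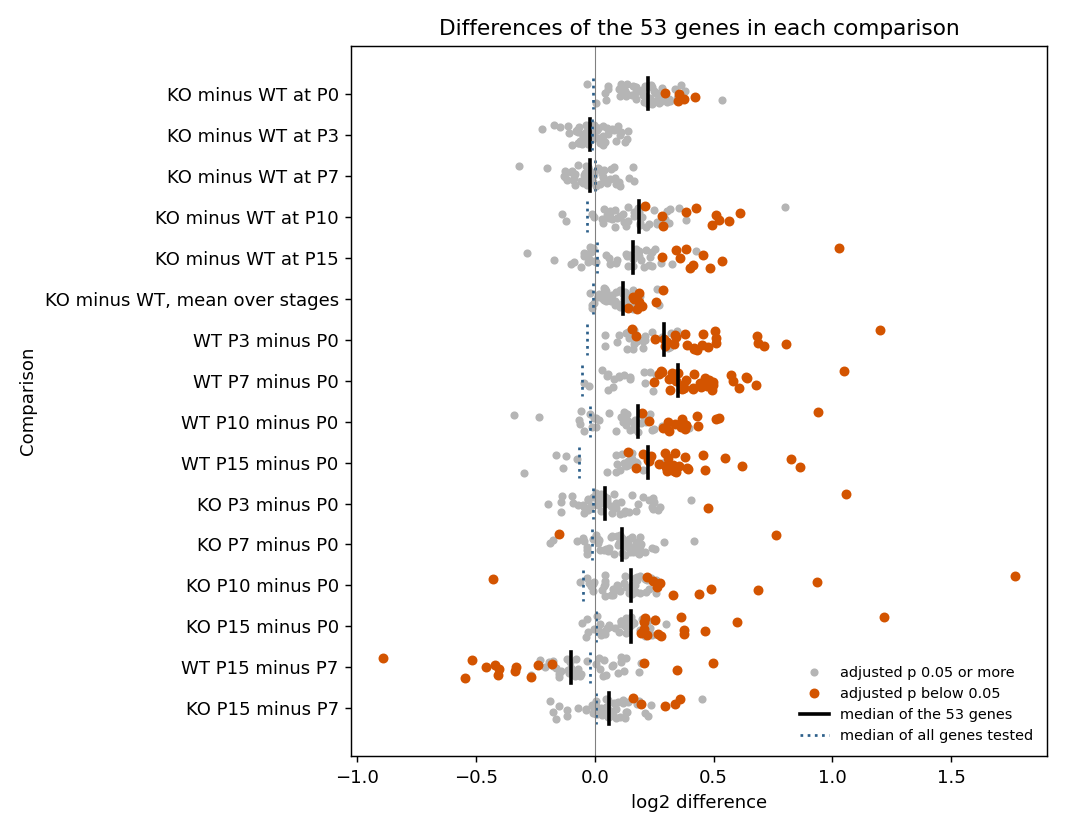
log2 differences (x axis) of the 53 genes in each of the 16 comparisons (y axis). Each point is a gene, orange where the limma adjusted p was below 0.05, solid ticks are the medians of the 53 genes and dotted ticks those of all genes tested; the solid tick lies right of the dotted one in all comparisons except KO minus WT at P3 and P7 and WT P15 minus P7, and with arrays centred on their medians the KO P3 and KO P10 medians are negative but still right of those of all genes.

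The members differed in how far their levels moved. The SD of a member's 10 group means had a median of 0.15 log2, and the SD between arrays of a group had a median of 0.13. It was largest for Rpl12 (0.58), Rpl30 (0.32), Rps15a (0.30) and Rpl24 (0.24), whose means over the arrays were 7.60, 8.52, 8.15 and 11.41, against a median of 11.54 over the members. It was smallest for Rps2 (0.050), Rps6 (0.058), Rpl36 (0.074) and Rpl41 (0.074), whose means over the arrays lay between 12.45 and 13.09 in a table whose highest value was 13.71. Whether the upper end of the scale limited their differences was not tested. Rps6, the protein phosphorylated by the S6 kinases below mTORC1, had KO group means between 13.03 and 13.14 and WT group means between 13.01 and 13.19. Its KO minus WT differences ran from -0.084 to 0.13 and none was called, at any stage or on average.

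Most members followed the family. The Pearson correlation of a member's 10 group means with the mean of the other members had a median of 0.79 and passed 0.5 in 42 of 53, and it is given as a description, since all members share the same arrays. Rps7 was most like the rest (r = 0.99) and Rpl29 (0.19), Rpl24 (0.20), Rps2 (0.27) and Rplp2 (0.35) least. WT P0 was the lowest of the 10 groups for 40 of the 53 genes. Rpl29 was low in WT P10, at 7.56, 7.63 and 7.53, and high in WT P15, at 8.05, 8.55, 8.40 and 8.45, a pattern that most members did not have. Of the stalk genes, Rplp0 was called in WT at P7 (0.25 ± 0.07, limma adjusted p = 0.00957) and at P15 (0.27 ± 0.07, limma adjusted p = 0.00214). Rplp2 was called in WT at P15 (0.30 ± 0.10, limma adjusted p = 0.0103) and Rplp1 in none of the comparisons against P0. None of the 3 stalk genes was called between the genotypes at any stage. Outside the family, the 3 genes whose 10 group means were most like the family's were Eif3h (r = 0.95), an initiation factor subunit, Gm8624 (r = 0.94), a predicted gene, and Hk1 (r = 0.94), a hexokinase.

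**Figure D4:**
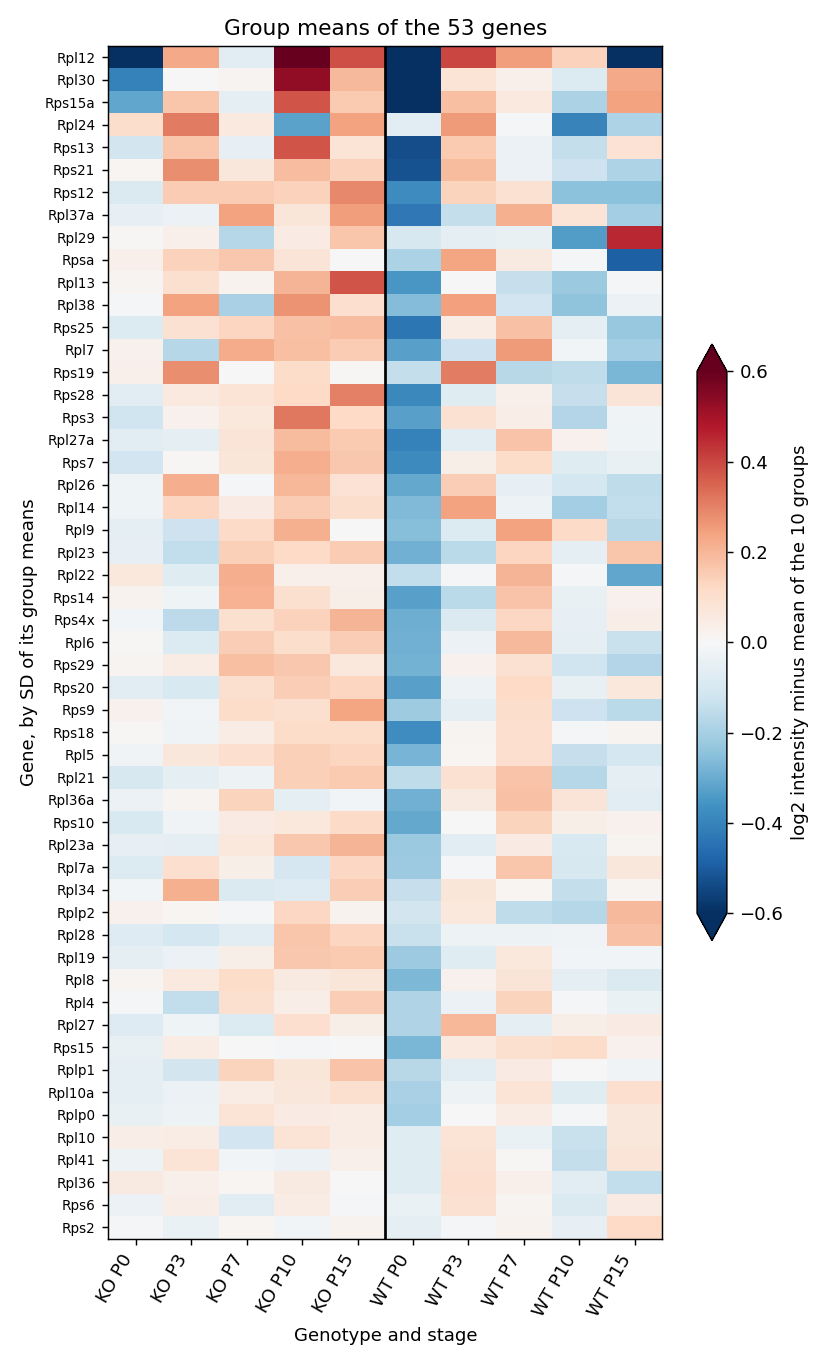
Group means of the 53 genes (rows) in the 10 groups (columns, KO left of WT, P0 to P15 within each), as log2 intensity minus the mean of the 10 groups, with rows in order of the SD of the group means and colours cut at 0.6. The WT P0 column is lowest for 40 of the 53 genes, and the bottom rows, Rpl36, Rps6 and Rps2, change little.

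Other probe sets of the same genes gave a check on the choice of probe set. The 53 genes had 184 single-symbol probe sets, 131 of them besides those chosen, and Rpl12, Rpl30 and Rps15a had no second one. Of the other probe sets of called members, the sign was that of the chosen one in 17 of 18 for KO minus WT at P0, 21 of 22 at P10, 27 of 29 at P15 and 33 of 33 for the mean over stages. In WT against P0 the same held for 55 of 59 at P3, 82 of 88 at P7, 38 of 44 at P10 and 63 of 70 at P15. The 5 probe sets of Rpsa gave KO minus WT differences of 0.19 to 0.49 at P15, all positive. The 3 probe sets of Rps13 agreed in sign at P0 (0.31 to 0.44) and at P10 (0.23 to 0.57) but not at P15 (-0.37 to 0.18). Ribosomal protein genes have many processed copies in the genome, and a probe set that lies in such a copy could measure it, its parent or both, which could not be told apart here.

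Genes that make or assist ribosomes were also called, in shares that varied with genotype and stage. Of 49 ribosome biogenesis genes measured, 13, 3, 9 and 13 were called higher in KO at P3, P7, P10 and P15 against P0 and none lower. These are 26.5%, 6.12%, 18.4% and 26.5%, against 7.80%, 7.84%, 14.4% and 19.5% of all genes tested, so the P7 share was under that of all genes. In WT 22, 18, 17 and 20 were called higher (44.9%, 36.7%, 34.7% and 40.8%, against 11.6%, 15.5%, 11.7% and 21.6%), with 2 lower at P15 (against 27.3%). Npm1, a nucleolar chaperone, rose by 1.09 ± 0.15 in WT at P7 (limma adjusted p = 8.04e-06). Between the genotypes none was called at P0, P3 or P7, and at P10 1 was higher and 1 lower (2.04% each, against 8.10% and 9.13% of all genes). At P15 6 were higher in KO (12.2%, against 6.78% of all genes) and 2 lower (against 4.33%). Brix1, needed for the large subunit, was at 0.53 ± 0.12 (limma adjusted p = 0.0046). The mean of the list was 0.065, 0.11, 0.26 and -0.027 in KO P15 replicates 1 to 4, and -0.0028, 0.0065, 0.098 and -0.14 in the WT P15 arrays. Replicate 3, whose Ptpn1 level was that of WT glands, was the highest, and calls of this list were not counted without it. Of 10 elongation factors and other 5′ TOP genes, 2 (20.0%, against 1.27% of all genes) were called higher in KO at P0: the elongation factor subunit Eef1b2 (0.38 ± 0.10, limma adjusted p = 0.0414) and Fau (0.24 ± 0.06, limma adjusted p = 0.0458), which encodes the small subunit protein eS30 fused to a ubiquitin-like one. At P15 1 of the 10 was called (10.0%, against 6.78% of all genes): Naca, part of the complex that binds new peptide chains, was higher by 0.50 ± 0.09 (limma adjusted p = 0.000681). Of 30 initiation factors 6 (20.0%, against 6.78% of all genes) were higher and 1 lower (against 4.33%) in KO at P15. Eif4a2 was at 0.77 ± 0.12 (limma adjusted p = 9.26e-05). The mean of the initiation factors was 0.065, 0.14, 0.17 and 0.061 in KO P15 replicates 1 to 4, and -0.039, 0.067, 0.065 and -0.033 in the WT P15 arrays. The P10 counts were 2 higher and 2 lower (6.67% each, against 8.10% and 9.13%). Of 22 genes of mTORC1 and translational control none was called between the genotypes at P0, P3 or P7 or in the mean over stages, 2 were higher and 2 lower in KO at P10 (9.09% each, against 8.10% and 9.13% of all genes), and 1, the kinase gene Pdpk1, was lower at P15 (4.55%, against 4.33% of all genes), with a difference of -0.25 ± 0.08 (limma adjusted p = 0.029). Both shares are near those of all genes.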

How the data were processed

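The deposited table holds log2 intensities of 34760 probe sets on 37 arrays. The R package affy is named, per the submitters' processing notes. How background, summarisation and normalisation were done was not given in the sources used here. Array medians lay between 6.52 and 6.79. The number of arrays limits the precision. Genes were named from GEO's platform annotation, using the 21640 probe sets with 1 symbol (1321 had several and 11799 none), and for each gene the probe set with the highest mean. Genes were tested where 3 or more arrays exceeded 4.96, the table's 25th percentile.

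The fit used limma 3.58.1 under R 4.3.3, took in all 37 arrays, and had a mean for each group and no block. Contrasts were tested two-sided with Benjamini-Hochberg adjustment over 16865 genes and a threshold of 0.05; called means past it. The script was tested on simulated data. Alternatives were no filter, the mean of all probe sets, quantile normalisation, median centring, another variance prior, array weights, a replicate block, only the groups compared, marker scores as covariates and arrays left out. An array was in doubt if its lymphocyte or muscle score exceeded the arrays' median by over 1, or if Ptpn1 went against the label. Named genes are, per contrast, up to 4 rises and 4 falls called, or the 2 smallest p, with the most and least variable members, those least like the family, Rps6, Rplp0, Rplp1, Rplp2 and Rpsa. Others in the text, such as complete sets of called members, were added after their values were seen. The members and lists were chosen with earlier results of these data known.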

Additional observations from a re-analysis of the deposited data

Results flagged for a closer look

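In the 6 groups of 4 or 5 arrays, 1 array lay far from the rest of its group in 9 of 186 series tested, and chance alone gives about 1 in 20. The family level of KO P0 replicate 1 was -0.1833, below the other 3 KO P0 arrays, which lay at -0.01188 to -0.005425. Rps12 was low in the same array, at 11.27 against 11.47 to 11.49. Rpl21 was high in KO P0 replicate 2, at 10.71 against 10.47 to 10.51. Rpl9 was low in KO P7 replicate 2, at 13.12 against 13.31 to 13.38. In KO P15 glands Rpl30 was low in replicate 3, at 8.504 against 8.787 to 8.804, and Rpl36 was high in replicate 4, at 13.01 against 12.9 to 12.91. In WT glands Rpl24 was high in P0 replicate 2, at 11.84 against 11.13 to 11.2, Rpl41 in P7 replicate 4, at 12.72 against 12.61 to 12.62, and Rps15a in P15 replicate 4, at 8.695 against 8.302 to 8.311.

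The KO minus WT difference varied between stages, by limma's F test, for 9 of the named members. The limma adjusted p was 0.01203 for Rps13, 0.01589 for Rpl38, 0.02532 for Rpl12, 0.02677 for Rpl10 and 0.02952 for Rpl29. It was 0.03039 for Rpl9, 0.0319 for Rps15a, 0.04013 for Rps25 and 0.04293 for Rpl7. Over all 53 members 20.8% were called by this test, near the 18.0% of all genes tested. Removing the 7 arrays in doubt left a single KO P10 array, so calls of this test without them are not given. The causes were not tested.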

How the results depend on the processing

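Counts of called members moved widely with the processing, while directions of named members did not. Over 1233 refits of 60 results on named members, 1039 kept their side of the threshold, 194 lost it and none turned its sign. Of 327 medians 8 changed sign. Most named results were picked as the largest called differences of these arrays, and the refits reuse the same arrays. Kept signs are therefore no independent support for them. The uncalled genotype results at P3 and P7 count as kept because they stayed uncalled. No filter and the trended, robust variance prior moved no count of calls by over 1.5 times. The mean of all probe sets gave 1 call in KO P7 minus P0 and 6 in KO P10 minus P0. A further quantile normalisation gave 1 for KO minus WT at P0, 5 at P15, 6 for its difference between stages and 4 for KO P7 minus P0. Median centring gave 11 for KO minus WT at P0, 24 at P15, 22 for its difference between stages, 10 for WT P15 minus P0, 4 each for KO P3, KO P7 and KO P15 minus P0, and 29 for WT P15 minus P7. Array weights gave 20 for KO minus WT at P0, 27 at P10, 17 at P15, 32 for the mean, 23 for the difference between stages, 31 for WT P10 minus P0, 6 each for KO P3 and KO P7 minus P0, 20 for KO P10 minus P0 and 8 for KO P15 minus P7. Fitting only the groups compared gave 0 for KO minus WT at P0 and at P10, 2, 22, 0 and 16 for WT P3, P7, P10 and P15 minus P0, 1 for KO P3 minus P0 and 6 for KO P10 minus P0, in a fit with fewer samples. The lymphocyte and muscle covariates gave 0 for KO minus WT at P10, 0 for the mean, 0 for the difference between stages and 1 for KO P10 minus P0. The epithelial covariate gave 0 for KO minus WT at P0, 29 at P10, 16 at P15, 20 for the difference between stages, 19, 10 and 6 for WT P7, P10 and P15 minus P0, 8, 5, 31 and 5 for KO P3, P7, P10 and P15 minus P0, 25 for WT P15 minus P7 and 9 for KO P15 minus P7. Without the arrays in doubt KO minus WT had 0 at P0, WT P10 minus P0 had 9 and KO P3 minus P0 had 1. A single KO P10 array was then left, so counts for comparisons that use KO P10 are not given. The cause of these shifts was not tested.

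With each array left out in turn, KO minus WT had 0 to 28 calls at P0, 0 at P3, 0 at P7, 2 to 11 at P10, 6 to 10 at P15, 3 to 21 for the mean and 1 to 20 for the difference between stages. WT minus P0 had 9 to 38 at P3, 24 to 41 at P7, 7 to 28 at P10 and 18 to 37 at P15, and KO minus P0 had 0 to 5, 0 to 5, 7 to 13 and 4 to 16. P15 minus P7 had 2 to 6 in KO and 12 to 19 in WT. Same-numbered KO and WT arrays of a stage were compared in their deviations from the group means, and were not correlated in every pair. The correlation was over 0.1 in 9 of 18 pairs, with a median of 0.10 and a range of -0.52 to 0.38. Arrays with different numbers were not compared, so whether the numbers pair samples cannot be told. The replicate block gave 1 call for KO minus WT at P0, 3 for the difference between stages, 0 for KO P7 minus P0 and 3 for KO P15 minus P7, and moved no other count by over 1.5 times. The number of arrays, 3 to 5 a group, limits which differences these tests can call.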

Other observations

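The mitochondrial ribosome has its own set of proteins, encoded by 77 genes measured here, and these did not follow the cytosolic set in every comparison. In KO glands at P3 against P0, 53 of the 77 were called higher by limma (68.8%, against 7.80% of all genes) and none lower (against 11.0%), with a median of 0.39 log2, where 2 of the 53 cytosolic genes were called. In WT glands at P15 against P0, 2 were higher (2.60%, against 21.6%) and 41 lower (53.2%, against 27.3%), with a median of -0.26, where 27 cytosolic genes were higher and none lower. Between the genotypes 24 of 77 were higher in KO at P15 (31.2%, against 6.78%), with a median of 0.25. At P10 11 were lower in KO (14.3%, against 9.13%), with a median of -0.19. The mean of the set was 0.079, -0.27 and -0.24 in KO P10 replicates 1, 2 and 3, and 0.16, -0.023 and -0.010 in the WT P10 arrays. The low values were thus those of replicates 2 and 3, which are arrays in doubt, while replicate 1 lay within the WT range. The difference between the sets was not tested.

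Among the 10 genes outside the family whose group means were most like the family's were Gas5 (r = 0.92), which hosts small nucleolar RNAs and has a 5′ TOP start, and the elongation factor subunit Eef1b2 (r = 0.91); both were picked after their values were seen, over 10 groups that share the same arrays.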
